A study of Homo sapiens with 6 samples.

Results

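H3K4me3 regions that were called at the same promoters in ProMMP2-3xHA and WT U2OS cells were compared by their width. A promoter was kept where a region of the ProMMP2-3xHA list overlapped exactly 1 region of the WT list and the reverse also held, and where both regions lay within 1 kb of the transcription start site (TSS) of a protein coding gene. This rule gave 11291 member genes of 20163 protein coding genes, at 9569 pairs of regions among 13902 one-to-one pairs. Because some promoters are shared, 1584 pairs carried more than 1 gene and 7985 carried 1. The value for each gene was the log2 of the ProMMP2-3xHA width over the WT width, so that -1 stands for a region 2-fold narrower in the ProMMP2-3xHA cells. Members at both ends were chosen by this same ratio, and the ratio is therefore a description and was not tested.

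U2OS is a human osteosarcoma cell line with traits of bone-forming cells. The WT cells carried no tag, and the ProMMP2-3xHA cells were the same line stably carrying a lentiviral full-length cDNA of MMP2, the gene of the matrix protease MMP-2, with HA epitope tags at the C-terminus of the protein. Whether this stable line was 1 clone is not given in the sources used here. Cells of both lines were overconfluent, grown for 2 days past confluence, and native ChIP-Seq, in which micrococcal nuclease cuts unfixed chromatin into nucleosomes, was performed with an antibody against H3K4me3 (1 library per line) or against HA (3 replicates in the ProMMP2-3xHA cells, whose peak lists are used below). An HA library from WT cells was not used here. No depth is known for either H3K4me3 library, since the lists hold intervals without read counts, and a called width depends on depth, on enrichment and on the peak caller as well as on the mark. With 1 library on each side, each width ratio compares those libraries, and differences between the cell lines, the immunoprecipitations and the depths cannot be told apart.

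H3K4me3, the trimethylation of lysine 4 of histone H3, marks nucleosomes at the start of active and poised genes. It is written by the SET1 and MLL (KMT2) family of methyltransferases, which are recruited in part through unmethylated CpG dinucleotides, and it usually flanks a nucleosome-depleted gap at the TSS, with the downstream side extending into the gene. Wide domains of the mark are known for genes of cell identity, whereas promoters of genes that are weakly used in a cell tend to have narrow ones.

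The genomic sequence around the TSS (GRCh37, 100 bp on either side, in the direction of transcription, with each CpG in capitals) is shown for 7 promoters at the limits of the range, so that their CpG content can be read beside their widths. The first 3 were narrower in the ProMMP2-3xHA cells and the last 4 were wider.
FASTK (chr7:150777854-150778053, minus strand): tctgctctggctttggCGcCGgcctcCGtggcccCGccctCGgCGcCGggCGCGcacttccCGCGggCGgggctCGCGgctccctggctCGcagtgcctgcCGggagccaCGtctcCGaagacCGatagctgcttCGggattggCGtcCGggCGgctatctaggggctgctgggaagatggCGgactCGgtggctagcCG
ARHGAP18 (chr6:130031223-130031422, minus strand): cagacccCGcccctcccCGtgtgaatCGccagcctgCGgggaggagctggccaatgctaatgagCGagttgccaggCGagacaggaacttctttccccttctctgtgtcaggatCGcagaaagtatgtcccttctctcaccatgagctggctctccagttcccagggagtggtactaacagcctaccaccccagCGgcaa
NXNL2 (chr9:91148848-91149047, plus strand): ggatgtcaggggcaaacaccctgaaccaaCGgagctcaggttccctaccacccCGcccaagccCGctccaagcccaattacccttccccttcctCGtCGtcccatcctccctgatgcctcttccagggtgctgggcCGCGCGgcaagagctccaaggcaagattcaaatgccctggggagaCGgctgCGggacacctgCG
C1R (chr12:7245104-7245303, minus strand): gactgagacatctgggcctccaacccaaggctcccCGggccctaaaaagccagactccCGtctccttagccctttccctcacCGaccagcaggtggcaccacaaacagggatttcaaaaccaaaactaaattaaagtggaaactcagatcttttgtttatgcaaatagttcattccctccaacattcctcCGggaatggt
IGFL4 (chr19:46580277-46580476, minus strand): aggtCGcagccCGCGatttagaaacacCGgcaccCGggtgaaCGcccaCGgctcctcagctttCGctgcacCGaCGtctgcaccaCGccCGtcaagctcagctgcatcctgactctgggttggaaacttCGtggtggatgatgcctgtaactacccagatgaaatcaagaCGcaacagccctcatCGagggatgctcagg
PRDM16 (chr1:2985632-2985831, plus strand): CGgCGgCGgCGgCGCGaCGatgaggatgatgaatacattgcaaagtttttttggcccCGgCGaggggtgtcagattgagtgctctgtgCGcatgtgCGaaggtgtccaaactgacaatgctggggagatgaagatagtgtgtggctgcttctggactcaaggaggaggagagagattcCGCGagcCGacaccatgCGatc
ABLIM3 (chr5:148520946-148521145, plus strand): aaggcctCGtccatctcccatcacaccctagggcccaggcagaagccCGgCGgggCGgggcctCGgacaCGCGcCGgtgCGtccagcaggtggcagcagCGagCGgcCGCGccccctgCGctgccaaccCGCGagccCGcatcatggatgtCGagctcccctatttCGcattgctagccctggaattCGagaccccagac
Both sides held CpG-rich and CpG-poor starts. In these 200 bases the narrowed promoter of FASTK had 26 CpGs, but that of ARHGAP18 had 8. On the widened side, ABLIM3 had 20 and C1R had 4.

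Nearly all shared promoters were narrower in the ProMMP2-3xHA library. The median log2 ratio over the 11291 genes was -0.35, a width of 0.785 of the WT width, with quartiles of -0.59 and -0.18. The ProMMP2-3xHA region was narrower at 10515 genes (93.1%), wider at 769 (6.81%) and of equal width at 7. The median width of the member regions was 1448 bp in the ProMMP2-3xHA cells and 1871 bp in the WT cells. Relative to the median of all one-to-one pairs (-0.38), 5148 genes (45.6%) lay below and 6143 (54.4%) above. Since 9569 of those 13902 pairs are the members' own, a nearly even split follows from the centring. At least 2-fold below that median lay 558 genes, and 29 lay at least 2-fold above it.

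Changes of 2-fold were almost confined to 1 direction among these genes. At least 2-fold narrower regions were found for 1160 genes (10.3%, 95% exact interval 9.72 to 10.8%), against 14.7% of all one-to-one pairs. At least 2-fold wider regions were found for 10 genes (0.0886%, 0.0425 to 0.163%), against 0.367% of all pairs. The intervals cover counting error only. The first share was 2.41% where the TSS had to lie inside both regions, 5.68% where both had at least 500 bp and 0.0198% where they had to overlap by at least 50% of each. The last condition leaves almost no room for a 2-fold ratio. Just inside the lower threshold lay PCYOX1L, with 595 bp in ProMMP2-3xHA and 1190 bp in WT cells, and just outside it RABAC1, with 1230 and 2458 bp. At the upper threshold, AMPD3 had 856 and 427 bp and AHR, just outside, 827 and 423 bp.

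**Figure D1:**
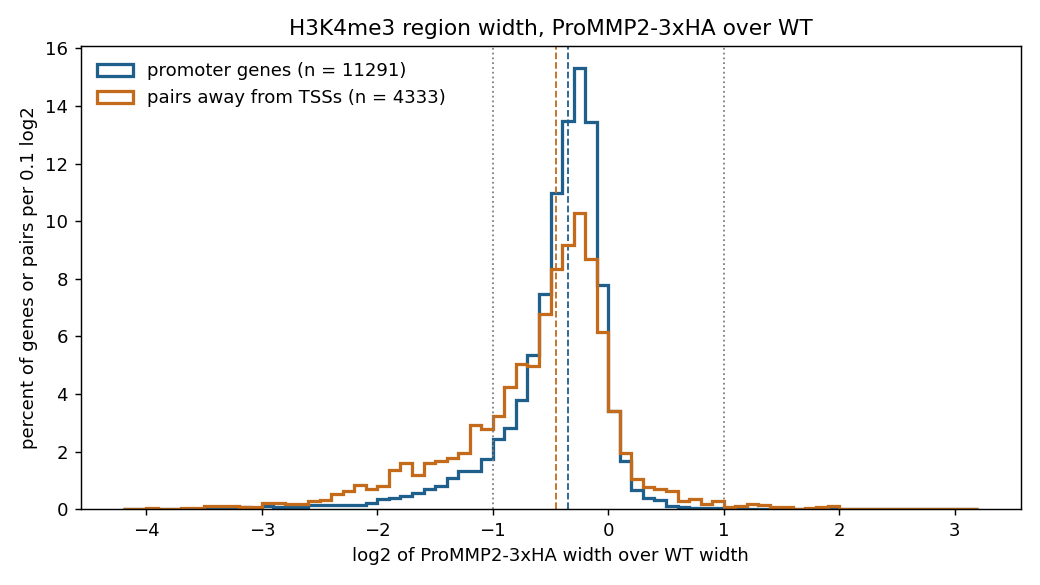
Distribution of the log2 ratio of ProMMP2-3xHA width over WT width, in percent per bin. Blue stands for 11291 promoter genes and orange for 4333 one-to-one pairs not assigned to the 5′ end of a protein coding gene. Dashed lines mark the medians (-0.35 and -0.46) and dotted lines mark 2-fold. Both distributions lie mostly below 0, and the orange one has the longer tail of narrowed regions.

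The 4333 one-to-one pairs not assigned to the 5′ end of a protein coding gene were narrowed more. Their median log2 ratio was -0.46, 976 of them (22.5%) were at least 2-fold narrower and 43 (0.992%) at least 2-fold wider. They were also narrower to begin with, with a median of 1251 bp in WT and 842 bp in ProMMP2-3xHA cells. This set is not free of promoters. By the TSS of the canonical transcript, 10585 pairs had a gene in place of 9569, so part of the 4333 lay at canonical TSSs.

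Among the member pairs, the ratio varied with the width in WT cells. In the decile of pairs with the narrowest WT regions (163 to 1009 bp) the median log2 ratio was -0.51 and 26.9% of pairs were at least 2-fold narrower. In the decile with the widest WT regions (3066 to 10402 bp) these values were -0.27 and 4.39%. In base pairs the order was the other way, since the median loss of width was 225 bp in the first group and 667 bp in the last. The WT width is part of the ratio, so these values are a description.

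Both edges of the regions moved inward. For the 7962 genes whose pair had a single TSS nearby, the downstream edge lay a median of 195 bp nearer to the TSS side in the ProMMP2-3xHA list (shift -195 bp, quartiles -347 to -74 bp) and the upstream edge a median of 161 bp (shift -161 bp, quartiles -319 to -46 bp). At 78.6% of these genes both edges were drawn in, and at 1.67% neither was. With the TSS at 0 and upstream positions negative, the median WT region ran from -503 to 1214 bp and the median ProMMP2-3xHA region from -307 to 999 bp.

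At the most narrowed promoters both edges moved in, and the region that was still called lay mostly downstream of the TSS. In the narrowed decile, the 956 pairs with the lowest ratios, the WT region ran from a median of -402 to 974 bp. It thus reached less far upstream than downstream. The median shifts of the 2 edges were similar, -389 bp downstream and -424 bp upstream, and both were drawn in at 97.7% of genes. In the ProMMP2-3xHA list the median upstream edge of the same promoters was 55 bp after the TSS and the downstream edge 582 bp after it. The ProMMP2-3xHA region lay wholly downstream of the TSS at 72.9% of these genes, against 15.7% for the WT region, and wholly upstream at 10.7% against 1.73%. Over all 7962 genes with a single TSS nearby, 33.8% of ProMMP2-3xHA and 13.4% of WT regions lay wholly downstream. The decile was chosen by these same widths. In the widened decile, the 956 pairs with the highest ratios, 18.5% of ProMMP2-3xHA and 17.1% of WT regions lay wholly downstream. With the TSS of the canonical transcript in place of the 5′ end of the gene, the shares in the narrowed decile were 68.7% and 10.1%.

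In the widened decile the edges did not move together. At 51.7% of its single genes only the upstream edge was drawn in, at 27.0% only the downstream edge, at 5.12% both and at 16.2% neither. The median downstream edge was 1346 bp after the TSS in ProMMP2-3xHA and 1242 bp in WT cells, a median shift of 64 bp per gene, whereas the median upstream shift was -13 bp (quartiles -82 to 84 bp). At PRDM16 the upstream edge lay 569 bp after the TSS in WT and at -400 bp in ProMMP2-3xHA cells, while the downstream edge went from 1172 to 1023 bp. The narrowed decile ended between PDHB (-1.06) and JRK (-1.05), and the widened decile began between SPRED1 and PRDM8 (both -0.05). The widened decile therefore also holds promoters that were slightly narrower.

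**Figure D2:**
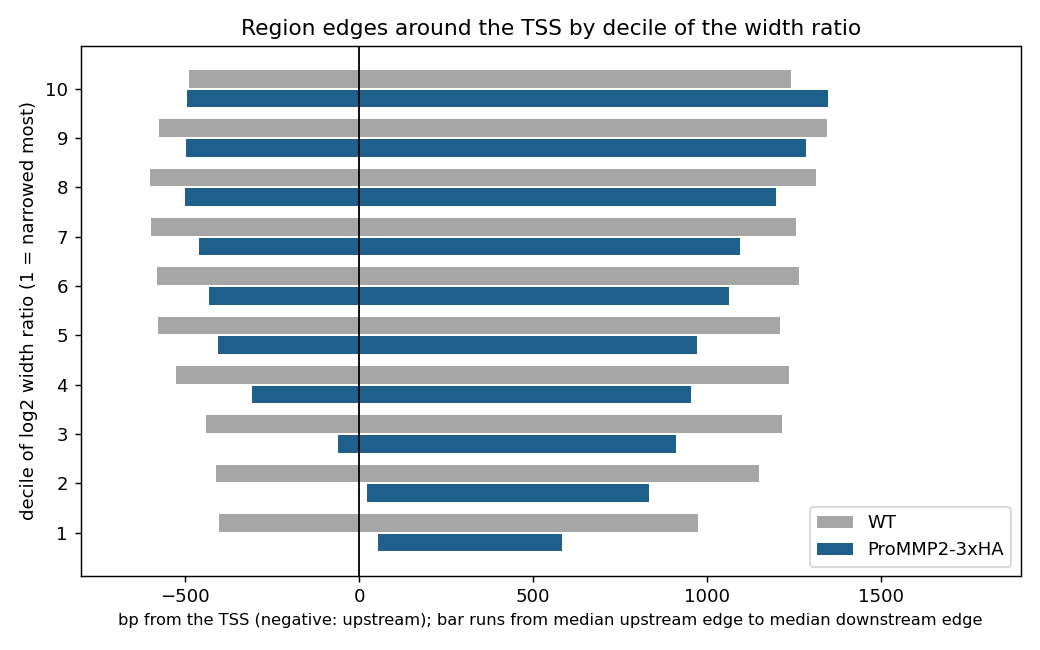
Median upstream and downstream edge of the H3K4me3 region, in bp from the TSS, in WT (grey) and ProMMP2-3xHA cells (blue), for each decile of pairs by log2 width ratio (1, narrowed most; 10, widened most). In the lowest decile the blue bar runs from 55 to 582 bp and does not reach the TSS, and in the highest decile the bars start at -494 and -488 bp.

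The lowest ratios of all came from promoters where a ProMMP2-3xHA region of only 155 to 224 bp was called. FASTK, which encodes a mitochondrial RNA-binding protein, had a WT region of 3828 bp (chr7:150777049-150780876) and a ProMMP2-3xHA region of 224 bp, a log2 ratio of -4.10. The WT region lay mostly upstream, from -2923 to 905 bp of the TSS, and the ProMMP2-3xHA region ran from 184 to 408 bp. EZH2, the histone H3 lysine 27 methyltransferase of Polycomb repressive complex 2, had 2535 bp (chr7:148580004-148582538) in WT and 196 bp (chr7:148582341-148582536) in ProMMP2-3xHA cells (-3.69), and the remaining interval lay upstream, from -1123 to -927 bp of the TSS. GALNT13, an enzyme that starts mucin-type O-glycosylation, had 2272 and 170 bp (-3.74). The other 2 of the 5 lowest pairs were SH2D5, with 2035 and 155 bp, and MXD4, a MAX partner that antagonises MYC, with 2131 and 203 bp. Regions of this size are near the minimum length that the authors set for a call.

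Where both regions were at least 500 bp wide, the 10 lowest pairs had log2 ratios of -2.33 to -1.95. ARHGAP18, a GTPase-activating gene, had a WT region of 2594 bp (chr6:130029348-130031941) and a ProMMP2-3xHA region of 517 bp (-2.33). In WT cells this region ran from -619 to 1975 bp of the TSS, and in ProMMP2-3xHA cells from 44 to 561 bp. PHLDA2, an imprinted gene that restrains placental growth, had 2623 and 547 bp (-2.26), and here the upstream part remained, from -893 to -346 bp of the TSS. NXNL2, a thioredoxin-like gene known from photoreceptors, had 2494 and 525 bp (-2.25).

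The other pairs of this group were of mixed function. TGIF2, a homeobox repressor of TGF-β signalling, shared its pair with the read-through gene TGIF2-RAB5IF and had 2406 bp in WT and 527 bp in ProMMP2-3xHA cells (-2.19). CASZ1, a zinc finger transcription factor, had 3267 and 750 bp (-2.12), and EFNA3, an ephrin ligand of Eph receptors, 2372 and 556 bp (-2.09). The remaining members were GFOD1 (-2.23), the nucleobase transporter gene SLC43A3 (-2.20), the pseudokinase gene PRAG1 (-1.98) and the transporter gene MFSD10 (-1.95). Of these 10 pairs, 7 had no HA peak within 1 kb in any replicate, as had 39.1% of all member pairs. SLC43A3 had one in replicate 3 only (3.20-fold enrichment), and EFNA3 and MFSD10 each had one in replicates 2 and 3.

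At the other end, the 10 genes with regions at least 2-fold wider in ProMMP2-3xHA cells came from 8 pairs. C1R, a serine protease of the complement system, had 1393 bp (chr12:7244227-7245619) in ProMMP2-3xHA and 170 bp in WT cells, a log2 ratio of 3.03, and was the only member above 2. Its WT region is near the minimum length of a call. IGFL4, of the insulin growth factor-like family, had 2024 bp (chr19:46578883-46580906) and 689 bp (1.55). PRDM16, a zinc finger regulator of brown fat and stem cell fate, had 1423 and 603 bp (1.24), and ABLIM3, an actin-binding LIM protein gene, 1498 and 660 bp (1.18). ARHGAP24, a Rac GTPase-activating gene, had 894 and 404 bp (1.15). The Toll-like receptor genes TLR1 and TLR6 shared 1 pair of 1017 and 470 bp (1.11), as did FAM13A and TIGD2 with 1757 and 866 bp (1.02).

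The promoters at least 2-fold wider were narrow in WT cells, but the WT width is part of the ratio that chose them. The widest WT region of these 10 genes was 866 bp, whereas the median WT width of members was 1871 bp. The widened decile as a whole was not narrow, with a median WT width of 1825 bp against 1818 bp over all member pairs. Among pairs with both regions of at least 500 bp, the next were SEMA3E, a secreted semaphorin, with 2639 bp in ProMMP2-3xHA and 1368 bp in WT cells (0.95), ZNF83 with a gene that has no symbol (0.85), the antiviral gene BST2 with MVB12A (0.82), the sperm flagellar gene SPEF2 (0.82), the class I antigen gene HLA-C (0.77) and the axonemal dynein gene DNAH9 (0.75). HLA-C belongs to a family of near-identical genes, and its reads are uncertain for that reason. Of all these widened pairs and that of AMPD3, an AMP deaminase gene, only the pair of FAM13A and TIGD2 had an HA peak within 1 kb, in replicates 1 (5.1-fold) and 3 (6.44-fold). In the widened decile as a whole, 37.8%, 50.7% and 54.1% of pairs had one in replicates 1, 2 and 3.

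Members were then grouped into 49 gene lists by function. No list had a median above 0, 20 lists lay below the median of all member genes (-0.35) and 29 at or above it. The lists are described by their counts and medians, set beside those of all members, and many of their differences are small against the spread of single genes.

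The lowest medians were those of the ion channel genes and the 5 cathepsin genes (-0.52). Of 228 ion channel genes 81 were members, with a median of -0.55, and 26 of them (32.1%) were at least 2-fold narrower against 10.3% of all members. They ranged from the potassium channel gene KCNC1, with 1083 bp in WT and 158 bp in ProMMP2-3xHA cells (-2.78), to the chloride transporter gene CLCN6 (0.19). Their WT regions were narrow, with a median of 1306 bp. The 32 cadherin and protocadherin genes had a median of -0.50 with 7 at least 2-fold narrower, the 42 semaphorin, ephrin and plexin genes -0.49 with 9, and the 19 basic helix-loop-helix and GATA lineage factors -0.50 with 4. With both regions at least 500 bp, 60 ion channel genes had a median of -0.49 and 25 cadherin genes -0.33, which was the median of all such members. The cadherin median was -0.37 with the lists merged over gaps up to 3 kb and -0.66 with the TSS of the canonical transcript. Relative to the pairs of the same windows outside the list it was -0.02 (27 genes), and that of the ion channels was -0.25 (75 genes).

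Of the genes of the extracellular matrix, the metalloproteinases and their inhibitors had a median of -0.45 over 32 members, and 8 (25%) were at least 2-fold narrower, against 10.3% of all members. ADAMTS7, a secreted protease of cartilage and vessel matrix, had 1533 bp in WT and 167 bp in ProMMP2-3xHA cells (-3.20). It shared this pair with MORF4L1, a gene that is not of the list, and the 167 bp region is near the minimum length of a call. MMP19 had 510 and 719 bp (0.50). The 19 collagen genes, at 16 pairs, had a median of -0.46, and none reached 2-fold, from COL9A2 (-0.94) to COL11A1 (0.31). The integrins and laminins were split: their median was -0.27, yet 6 of 18 (33.3%) were at least 2-fold narrower. Another 4 (22.2%) were wider, against 6.81% of all members. They ranged from ITGA4 (1126 and 288 bp, -1.97) to LAMA5 (1250 and 1354 bp, 0.12).

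Cytosolic ribosomal protein genes were narrowed without being narrow. The 80 members, of 89 such genes, had median widths of 2970 bp in WT and 2018 bp in ProMMP2-3xHA cells, and a median log2 ratio of -0.44. Of these, 7 (8.75%) were at least 2-fold narrower, near the 10.3% of all members, and 2 (2.50%) were wider, against 6.81%. RPL39, on chromosome X, had 4789 and 1939 bp (-1.30), and RPS27L, a p53-responsive paralogue, 2383 and 3444 bp (0.53). An HA peak lay within 1 kb of 76.2%, 81.2% and 86.2% of these genes in HA replicates 1, 2 and 3, against 36.6%, 49.3% and 51.4% of all member genes. In the same width class, the 30 genes of SR proteins and hnRNPs, which act in splicing, had a median of -0.33 with none at least 2-fold narrower and HA peaks at 76.7%, 83.3% and 80.0%. The 74 mitochondrial ribosomal protein genes had a median of -0.34 and the 44 proteasome genes -0.30.

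Among chromatin genes, the Polycomb list had 18 members with a median of -0.43, and 4 (22.2%, against 10.3% of all members) were at least 2-fold narrower, from EZH2 (-3.69) to RING1, with 1517 and 1521 bp. The 18 methyltransferases, demethylases and complex members that write or remove H3K4 methylation had a median of -0.29, from SMYD3 (1363 and 666 bp, -1.03) to KDM5A (2463 and 2388 bp, -0.04). The 32 replication-dependent histone genes lay at 20 pairs with a median of -0.32. The 457 zinc finger (ZNF) genes, the largest list, had a median of -0.37.

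The highest medians were those of the osteoblast identity, SOX and HOX lists. The 8 members of the osteoblast identity list had a median of -0.07, and 3 (37.5%) were wider in ProMMP2-3xHA cells, against 6.81% of all members. MSX1, a homeobox gene of craniofacial bone, had 2321 bp in WT and 3206 bp in ProMMP2-3xHA cells (0.47). TNFRSF11B, which encodes the decoy receptor osteoprotegerin and was named after its value was seen, had 3664 and 4938 bp (0.43). MSX2 was the lowest (2152 and 1429 bp, -0.59), so that paralogues of the same kind lay at opposite ends of the list. The 8 SOX genes had a median of -0.07, from SOX17 (1576 and 1034 bp, -0.61) to SOX13 (2478 and 2432 bp, -0.03), and none was wider. The 20 forkhead genes had a median of -0.22, and other homeobox and PAX genes (48 members) a median of -0.37, close to that of all members, so that lists of developmental factors lay at both ends, with the basic helix-loop-helix and GATA factors at -0.50. With the TSS of the canonical transcript, the SOX median was -0.15 (7 genes) and the osteoblast median -0.11 (9 genes).

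The HOX genes, which set position along the body axis, differed by cluster. Over 21 members the median was -0.09, and none was at least 2-fold narrower, against 10.3% of all members. The 7 HOXA genes had a median of -0.09 and the 4 HOXB genes -0.07, whereas the 6 HOXC genes had -0.42 and the 4 HOXD genes -0.51. The lowest gene was HOXD3 (1291 and 872 bp, -0.57) and the highest HOXC8 (1433 and 1548 bp, 0.11). With the HOX pairs left out, the 10 Mb window that holds the HOXA cluster also had a median of -0.09 (25 pairs), while the windows of the HOXB, HOXC and HOXD genes had -0.38, -0.30 and -0.38. Relative to the pairs of the same windows that are not of the list, the HOX list had a median of 0.00, the SOX list 0.31 and the osteoblast list 0.21 (7 genes).

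Metabolic lists lay on both sides of the median of all members. The 40 members of respiratory complex I and its assembly factors had a median of -0.42. Of these, 4 (10.0%) were at least 2-fold narrower, close to the 10.3% of all members. The 47 of the other respiratory complexes and ATP synthase had a median of -0.36. The 23 cholesterol synthesis genes had a median of -0.24 with 6 (26.1%) wider, against 6.81% of all members. Among these 6 was LSS, which closes the sterol ring (2296 and 2951 bp, 0.36). The lowest of the list was HSD17B7 (776 and 310 bp, -1.32). The 14 purine synthesis genes had a median of -0.23, from HPRT1 on chromosome X (1482 and 567 bp, -1.39) to GMPS (-0.09). The 32 genes of glycolysis and HIF targets had a median of -0.31. Outside metabolism, the 26 genes of the p53 pathway had -0.24 and the 66 heat shock chaperone genes -0.30.

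**Figure D3:**
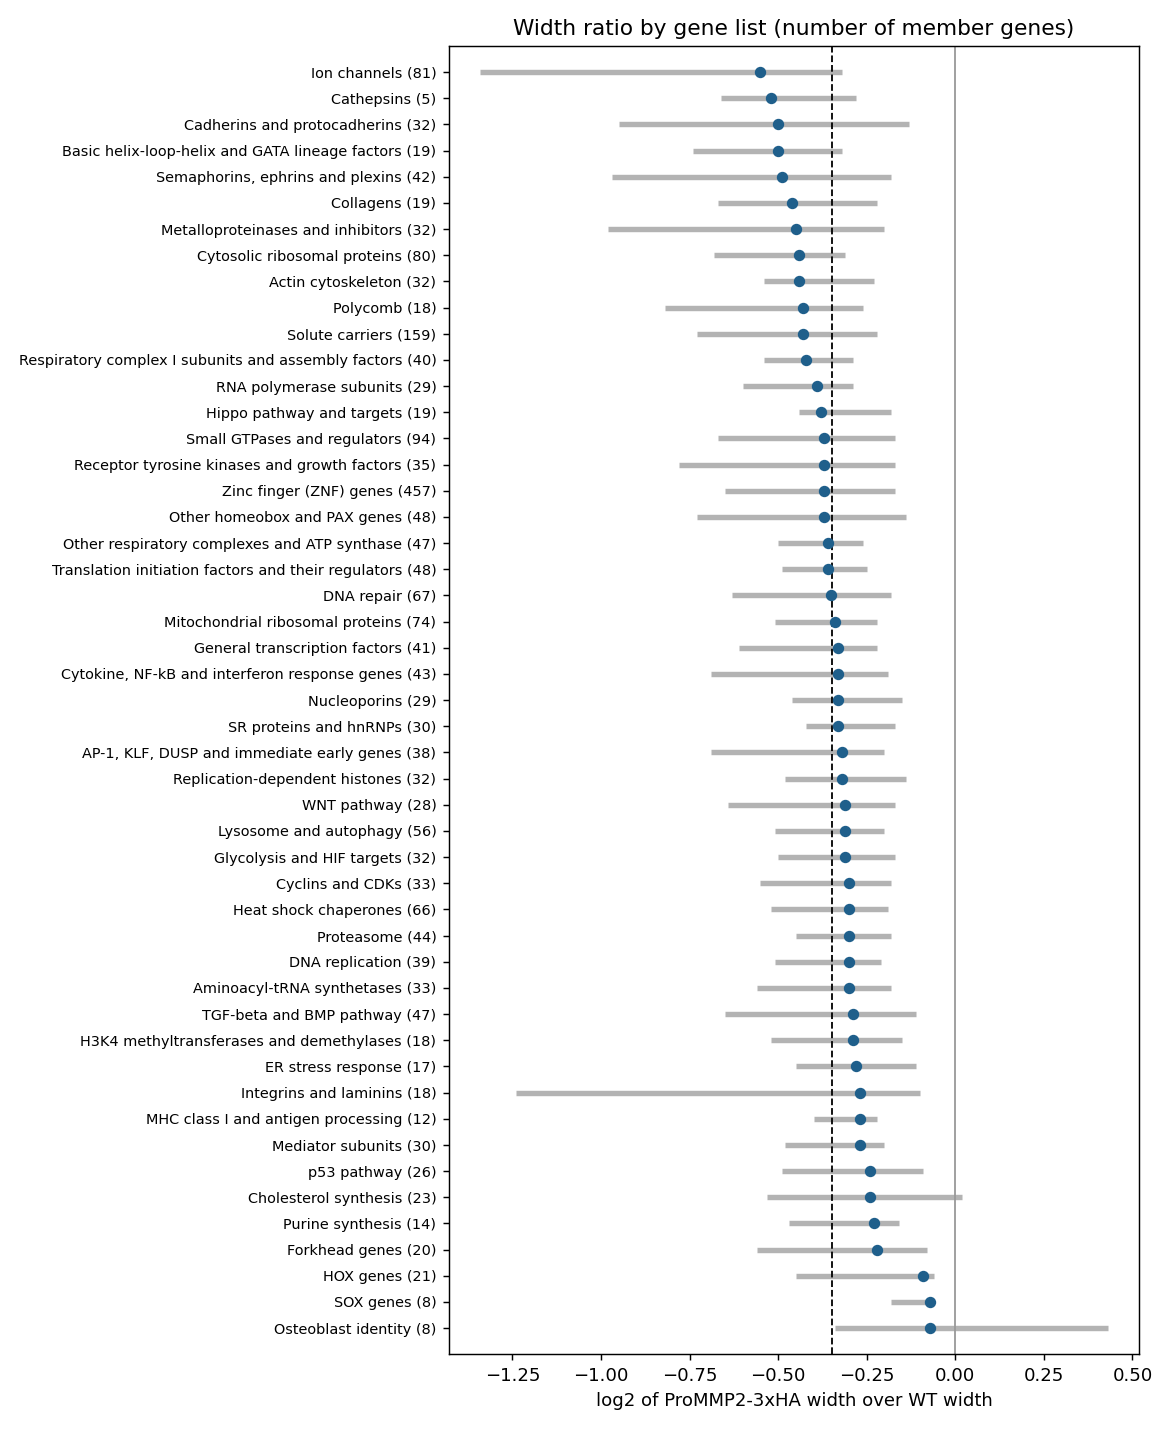
Median log2 width ratio (points) and quartile range of genes (grey bars) for 49 gene lists, with the number of member genes in brackets, a dashed line at the median of all members (-0.35) and a solid line at 0. Ion channels lie lowest (-0.55), the SOX and osteoblast identity lists highest (both -0.07), and no point lies above 0.

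Of the loci that the study used as examples, ADSL, an enzyme of purine synthesis, had 2410 bp in WT and 1723 bp in ProMMP2-3xHA cells (-0.48). SOX9, a regulator of cartilage formation, had one of the wider regions, of 4331 and 3911 bp (-0.15). CTSB, the gene of the lysosomal protease cathepsin B, had 4020 and 2539 bp (-0.66), with its regions starting 845 and 992 bp after the 5′ end of the gene. POR, FDFT1 and MMP2 were no members, since no region of either list lay within 1 kb of the 5′ end of these genes. At the TSS of their canonical transcripts, POR had 2149 bp in WT and 2057 bp in ProMMP2-3xHA cells (-0.06), FDFT1 3558 and 2560 bp (-0.47), and MMP2 1658 and 1844 bp (0.15).

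The labelled cell type was checked against marker genes. Of 15 osteoblast and mesenchymal markers, 8 were members. Of all 20163 protein coding genes 11291 were members, a similar share, so this count alone does not set the lineage apart. TWIST1, COL1A2, ALPL, BGLAP, DLX5 and CDH11 had no region of either list within 1 kb of the 5′ end of the gene. This does not show that the mark is absent, since POR, FDFT1 and MMP2 had regions only at their canonical TSSs. The canonical TSSs of the markers were not examined. RUNX2, the master regulator of the lineage, had 2164 bp in WT and 2000 bp in ProMMP2-3xHA cells (-0.11), SPARC 2751 and 2718 bp (-0.02) and SP7 463 and 623 bp (0.43). FN1 (3682 and 2100 bp, -0.81) and VIM (4860 and 3291 bp, -0.56) were narrowed more. Of 19 markers of blood, epithelium, liver, nerve, muscle and endothelium, EPCAM alone had a region of both lists within 1 kb of its 5′ end (1738 and 1106 bp, -0.65), and the symbol PECAM1 was not in the annotation used.

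The width ratio was not even along the genome. Chromosome X had the lowest median of all chromosomes, -0.56 over 337 pairs, and 24.9% of its pairs were at least 2-fold narrower (20.4 to 29.9%), against a median of -0.35 and 10.6% (10.0 to 11.3%) on the autosomes. It was followed by chromosomes 13 (-0.46), 16 (-0.45) and 19 (-0.44). The intervals cover counting error only and treat pairs of the same libraries as independent, so they do not test X against the autosomes. Chromosome 14 had the highest median (-0.26). Of the 956 pairs of the narrowed decile 77 lay on chromosome X, and of the widened decile 18. In 5 of the 49 gene lists the lowest member lay on chromosome X, RPL39, CHRDL1, HPRT1, PDK3 and SLC25A43, while 3.37% of member genes lie there.

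Promoters of the same stretch of a chromosome were weakly related in their ratios. In 278 windows of 10 Mb with at least 10 pairs, the median log2 ratio ran from -1.29 to -0.08. The correlation across pairs between a pair and the median of the other pairs in its window was 0.17 on the autosomes (Spearman, n = 9110). This is a weak relation between promoters of the same 2 libraries. It was taken over all autosomes together, so differences between chromosomes are part of it. The lowest windows were X 120 to 130 Mb (-1.29, 14 pairs) and X 140 to 150 Mb (-1.21, 10 pairs), and 8 of the 20 lowest lay on X. Outside X, the first 10 Mb of chromosome 8 (-0.88, 11 pairs) and 150 to 160 Mb of chromosome 7 (-0.79, 19 pairs), which holds FASTK, were lowest.

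The highest windows were 30 to 40 Mb of chromosome 4 (-0.08, 15 pairs), which holds TLR1 and TLR6, and 20 to 30 Mb of chromosome 7 (-0.09, 32 pairs), which holds the HOXA cluster. Chromosome 7 thus held windows at both limits. Regions called in 1 list only also varied along the genome. Over the 278 windows, the Spearman correlation between the median ratio and the number of ProMMP2-3xHA-only minus WT-only regions was 0.61, a description over windows of the same 2 libraries. Windows with a low median and more ProMMP2-3xHA-only regions were also found, such as 50 to 60 Mb of chromosome 7 (-0.55, 25 against 11 regions) and 130 to 140 Mb of chromosome 8 (-0.45, 31 against 1). On chromosome X, 39 regions of the ProMMP2-3xHA list overlapped no WT region and 141 WT regions overlapped no ProMMP2-3xHA region, a ratio of 0.277. On the autosomes these counts were 4833 and 2912, a ratio of 1.66. The window of chromosome 7 with FASTK held 1 and 19 such regions, and that with the HOXA cluster 48 and 11. HA peaks were also fewer on X, at 10.4%, 18.4% and 16.6% of promoter pairs in replicates 1, 2 and 3, against 36.5%, 49.6% and 51.2% on the autosomes.

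**Figure D4:**
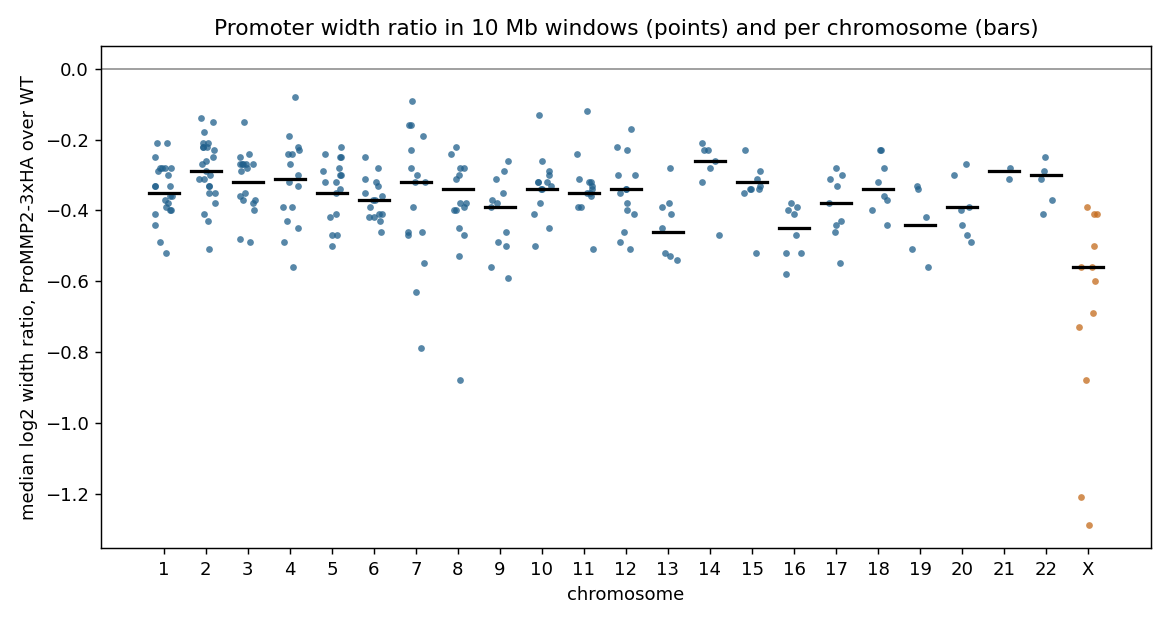
Median log2 width ratio of promoter pairs in each 10 Mb window with at least 10 pairs (points, spread sideways for sight only) and over all pairs of the chromosome (bars). Chromosome X (orange) lies lowest with a median of -0.56, and chromosome 7 spans from -0.79 to -0.09.

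HA peaks, which mark the tagged MMP-2 and took no part in choosing the members, were found at a smaller share of narrowed than of widened promoters in each of the 3 replicates. In HA replicate 1, 14.4% of the 956 narrowed pairs (12.3 to 16.8%) had an HA peak within 1 kb, against 37.8% of the 956 widened pairs (34.7 to 40.9%). In replicate 2 the shares were 20.8% (18.3 to 23.5%) and 50.7% (47.5 to 53.9%), and in replicate 3 they were 21.8% (19.2 to 24.5%) and 54.1% (50.9 to 57.3%). These intervals cover counting error only. Over all member pairs the shares were 35.6%, 48.5% and 50%, near those of the widened and above those of the narrowed end. All 3 replicates were lower at the narrowed end (mean difference -28.5 ± 4.66 percentage points, SD, n = 3, exact two-sided sign permutation p = 0.25, the smallest that 3 replicates allow). The share was highest in decile 9 of the ratio, at 45.4%, 59.7% and 62.9% in replicates 1, 2 and 3, and lower again in the last decile.

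The width of the regions differed along with the HA share. The median ProMMP2-3xHA width was 475 bp in the narrowed and 1905 bp in the widened decile, and the WT widths were 1394 and 1825 bp. Within quartile groups of the pairs by WT width, the share stayed lower at the narrowed end in each replicate. In the group with the narrowest WT regions, 9.52%, 15.4% and 12.7% of the pairs with the lowest ratios had an HA peak in replicates 1, 2 and 3, against 23.2%, 31.7% and 34.4% of those with the highest. In the group with the widest, these shares were 41.6%, 55.5% and 55.5% against 57.5%, 72.6% and 75.6%. The part of the ProMMP2-3xHA width in this difference was not tested.

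**Figure D5:**
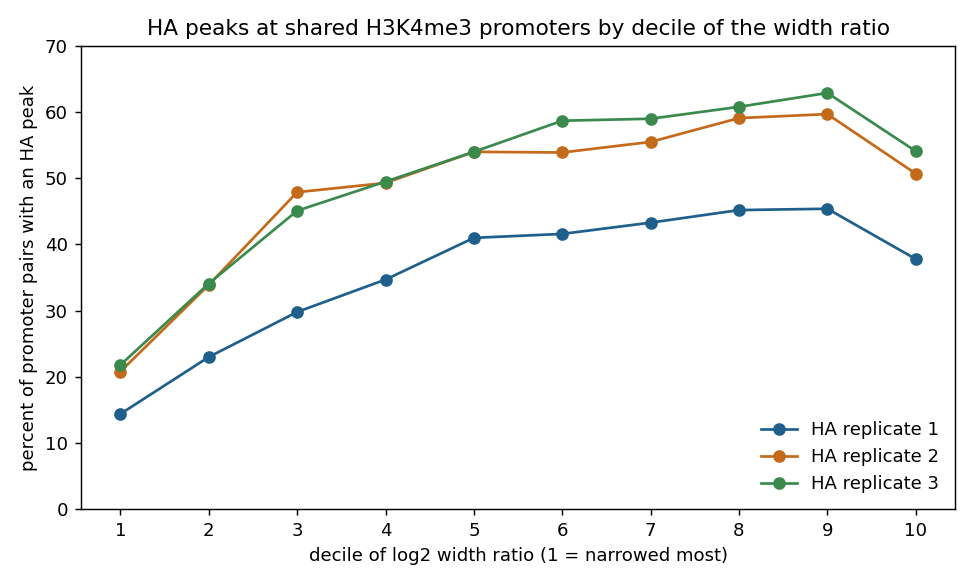
Percent of promoter pairs with an HA peak within 1 kb, by decile of the log2 width ratio (1, narrowed most; 10, widened most), for HA replicates 1, 2 and 3 of the ProMMP2-3xHA cells. The lines start at 14.4, 20.8 and 21.8% in the first decile, are highest in decile 9 (45.4, 59.7 and 62.9%) and are lower in the last.

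Where an HA peak was present, its height differed little. The median of the highest fold enrichment per promoter was 4.76 at the narrowed and 5.00 at the widened end in replicate 1, 5.57 and 5.60 in replicate 2, and 4.84 and 4.94 in replicate 3. The ratio of narrowed over widened was 0.975 ± 0.0211 (SD, n = 3, exact two-sided sign permutation p = 0.25). It was below 1 in 3 of 3 replicates, and the lowest ratio was 0.952, in replicate 1. Among pairs with a WT width between the quartiles, the ratios were 0.959, 1.02 and 0.960, so that replicate 2 lay above 1.

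The sequence around the TSS differed little between the ends. The TSS lay in both called regions at 17.1% of narrowed, 79.6% of widened and 67.9% of all member pairs. At the narrowed end these windows are therefore often not centred on the shared region. In the 1 kb around the TSS the median GC content was 64.2% at the narrowed end and 62.0% at the widened end, with 62.7% over all member pairs. The observed over expected CpG ratio was 0.786 and 0.773, with 0.784 over all. Motifs were then sought on both strands in the window from 250 bp before to 50 bp after the TSS. The GC box letters GGGCGG were present in 74.3% of narrowed and 68.4% of widened promoters, against 69.2% of member and 52.1% of all protein coding promoters. For CCAAT the shares, in the same order, were 32.6%, 40.7%, 36.2% and 35.8%. The TATAAA letters were present in 5.44% and 6.07% of the ends, close to the 5.70% of members, and in 10.9% of all promoters. The ETS letters CCGGAAG were present in 11.6% and 15.5%, both below the 17.4% of members, and in 11.8% of all promoters. The AP-1 letters TGACTCA were present in 2.3%, 3.87%, 2.75% and 3.97%, and the E-box CACGTG in 8.89%, 7.95%, 9.70% and 8.33%, in the first order. A match is only the presence of these letters.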

How the data were processed

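Native ChIP-Seq of overconfluent ProMMP2-3xHA and WT U2OS cells was used as deposited. The authors trimmed reads with Trim Galore 0.6.0, aligned them as pairs to hg19 (GRCh37) with Bowtie2 2.3.5.1, filtered on a mapping quality of 30 with SAMtools 1.9, removed duplicates with Picard and called peaks with MACS2 3.0.0a6 at a q-value of 0.05 and a minimum length of 147 bp. For H3K4me3 the authors combined narrow and broad calls, and the deposited lists hold intervals without score or counts. Neighbouring calls that were joined count as 1 wide region, which affects every width. The HA lists hold 1 line per summit, with the authors' fold enrichment over the control (a ratio) and a −log10 q-value. The merged HA list was not used and HA in WT cells was not analysed here.

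From these lists, one-to-one pairs (at least 1 bp of overlap), widths and edges were computed with Python 3.11.15, numpy 2.4.6, pandas 2.3.3 and scipy 1.17.1, and the overlaps were checked against bedtools 2.31.1 and on simulated lists. Genes and TSSs (the 5′ end of each gene) came from GENCODE version 44 lifted to GRCh37, and sequences from the GRCh37 genome. A gene took the pair nearest to its TSS with both regions within 1 kb. Ends were the lowest and highest decile of member pairs. Lines of an HA list with the same interval were 1 peak, and a peak counted within 1 kb of either region. HA values were tested by an exact two-sided permutation of the sign over 3 replicates, which the paper describes as independent biological experiments. All 3 were set against ends fixed by the same 2 H3K4me3 libraries, so that p measures only the spread between the HA libraries. Shares have 95% Clopper-Pearson intervals. A few genes and a promoter sequence are not reported here.

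The members, lists and tests were chosen with earlier results of these data known, and wrongly matched symbols were removed from 5 lists after values were seen. Named genes were the pairs with the 10 lowest and 10 highest ratios where both widths were at least 500 bp, the 5 lowest and highest of any width, the study's example loci, the lowest and highest of each list, and the members nearest to the 2-fold limits. All at least 2-fold wider genes, the markers and a few list members are named in addition, chosen after their values were seen. Alternatives were the TSS and its window, the overlap, the joining of regions, a minimum width, centring, HA thresholds, the size of the ends and the HA replicates.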

Additional observations from a re-analysis of the deposited data

How the results depend on the processing

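Of 61 alternatives to 10 results, 43 stayed on the same side and within the error of the reported value, 16 moved the value and 2 turned its sign. The median log2 ratio moved from -0.35 to -0.29 with the TSS inside both regions, -0.31 with an overlap of at least 50% of both regions, -0.33 with the lists merged over gaps up to 3 kb, -0.36 per region pair and -0.33 with both regions at least 500 bp. Centred on the median of all one-to-one pairs it was 0.03, by construction. The share of genes at least 2-fold narrower moved from 10.3% to 9.34% with the TSS within 500 bp, 2.41% with the TSS inside both regions, 0.0198% with 50% overlap, which leaves almost no room for such a ratio, 11.1% per pair, 5.68% with at least 500 bp and 4.94% when centred. The share at least 2-fold wider moved from 0.0886% to 0% with 50% overlap, 0.468% with merged lists and 0.257% when centred. The upstream shift moved from -161 to -146 bp with the TSS inside both regions. Between the lowest and highest quartile group the GC difference was 0.800 points in place of 2.25, and that of the CpG ratio was -0.00453 in place of 0.0132. The cause of these changes was not tested otherwise.

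Leaving out each HA replicate gave differences in HA share of -31.1 to -26.6 points and fold enrichment ratios of 0.965 to 0.986, with 0.5 as the smallest exact p that 2 replicates allow. The alternatives without chromosome X, with HA peaks within 1 kb of the TSS and with ratios relative to the 10 Mb window, with or without the list's own pairs, were chosen after seeing the data. Without chromosome X the median was -0.34, 9.81% of genes were at least 2-fold narrower, and the HA difference was -27.4 points. No paired analysis was possible because the 2 H3K4me3 groups have 1 library each. The depth of these libraries is unknown, so the ratios cannot be set against it.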
